A study of Mus musculus with 20 samples.

Results

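The HoxD cluster comprises 9 protein-coding genes, *Hoxd1*, *Hoxd3*, *Hoxd4*, *Hoxd8*, *Hoxd9*, *Hoxd10*, *Hoxd11*, *Hoxd12* and *Hoxd13*, which were taken by gene symbol as 9 of the 43280 genes counted in each RNA-seq library. RNA was sequenced from GFP+ mesenchymal cells sorted from E13.5 stomach and intestine of mice, with 2 libraries in each of 4 groups. The labels give the strain of these libraries as C57BL/6, while the study describes its animals as of mixed backgrounds. Control embryos carried *Bapx1*-cre and the *Rosa26*mTmG reporter, which turns cells that express Cre, and their descendants, from membrane Tomato to membrane GFP, and *Eed* KO embryos carried the same alleles with *Eed*fl/fl. Adult stroma of the small intestine was sorted as GFP+ cells in 2 control and 2 *Eed* KO libraries, in which Cre was *Pdgfrb*-CreERT2, activated with tamoxifen, and the reporter was again *Rosa26*mTmG. Accessible chromatin was measured by ATAC-seq in the 4 embryonic conditions, with 1 peak list for each.

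*Hox* genes encode homeodomain transcription factors that give cells along the head-to-tail axis their regional identity. They lie in 4 clusters in mammals, and within a cluster the order of the genes along the chromosome follows the order in which they are used, with the group 1 genes at the anterior and early end and the group 13 genes at the posterior and late end. PRC2, the complex that trimethylates lysine 27 of histone H3 and needs EED as its core subunit, keeps posterior *Hox* genes silent in anterior tissues. In the gut, HOXD proteins, with *Hoxd13* most posterior, are known from the mesenchyme of the hindgut and its sphincters.

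All 9 genes lie on the + strand of chromosome 2 (GRCm38/mm10), from *Hoxd13* at chr2:74668310-74671599 to *Hoxd1* at chr2:74762980-74765142. In the gene models behind the counts, 5 genes share no exon bases with a neighbour on either strand, namely *Hoxd13*, *Hoxd12*, *Hoxd9*, *Hoxd8* and *Hoxd1*. *Hoxd3* shared 62.3% and *Hoxd4* 52.3% of their exon bases with each other or with the readthrough model *Gm28230*, so that reads on those bases may be left out or split, and the counts of these genes are uncertain. *Hoxd11* shared 10.8% and *Hoxd10* 5.73% of exon bases with *Gm28309*. Levels were therefore compared between genes as CPM (counts scaled to a common library size) per kb of exon that no other model shares on the same strand.

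The 250 bases upstream of 4 RefSeq starts (GRCm38.p6, + strand, 5′ to 3′) are shown with each CpG in capitals, for genes picked by their RNA or peaks below. Whether CpG content is related to the RNA or the peaks was not tested. *Hoxd13* is shown as the gene whose level in the *Eed* KO stomach was highest relative to the control intestine, and *Hoxd10* as a gene that reached a low level there. *Hoxd8* is shown as the only gene with more than a few counts in every group. *Hoxd4* is the gene whose start lacked a peak in the control stomach list. The windows are chr2:74667975-74668224, chr2:74691641-74691890, chr2:74704365-74704614 and chr2:74721728-74721977.
*Hoxd13*: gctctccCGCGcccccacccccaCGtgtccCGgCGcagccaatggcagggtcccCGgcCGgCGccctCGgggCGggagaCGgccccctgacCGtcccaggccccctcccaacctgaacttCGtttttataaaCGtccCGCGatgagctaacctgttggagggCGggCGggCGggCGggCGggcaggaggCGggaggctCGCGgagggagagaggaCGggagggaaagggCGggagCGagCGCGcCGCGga
*Hoxd10*: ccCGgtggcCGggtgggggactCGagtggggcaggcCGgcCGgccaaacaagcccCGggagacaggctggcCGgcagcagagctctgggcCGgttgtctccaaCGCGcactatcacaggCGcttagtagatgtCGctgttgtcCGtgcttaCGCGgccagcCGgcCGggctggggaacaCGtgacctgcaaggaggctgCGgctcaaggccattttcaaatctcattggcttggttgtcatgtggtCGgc
*Hoxd8*: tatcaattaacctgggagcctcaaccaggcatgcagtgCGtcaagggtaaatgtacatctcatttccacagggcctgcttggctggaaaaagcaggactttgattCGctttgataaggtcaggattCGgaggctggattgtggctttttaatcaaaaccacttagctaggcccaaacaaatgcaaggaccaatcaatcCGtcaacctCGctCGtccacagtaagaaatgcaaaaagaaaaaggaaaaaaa
*Hoxd4*: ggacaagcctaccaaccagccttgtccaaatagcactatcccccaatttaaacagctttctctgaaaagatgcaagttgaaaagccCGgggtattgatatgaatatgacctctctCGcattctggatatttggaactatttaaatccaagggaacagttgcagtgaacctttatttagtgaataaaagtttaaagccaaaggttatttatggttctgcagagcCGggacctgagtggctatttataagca

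The *Hoxd13* window held 31 CpGs at 74.4% G+C, and 95.4% of the 32851 windows of this length in the RefSeq promoter table held as few or fewer. *Hoxd10* had 20 CpGs and *Hoxd8* had 6, the latter equal to the median of 6 over all windows. The *Hoxd4* window was the poorest of these in G+C, at 40.4%, and held 3 CpGs. Over all 10 starts of the 9 genes, including both starts of *Hoxd11*, the CpG count ranged from 2 at the upstream start of *Hoxd11* to 31 at *Hoxd13*. The letters TTTATG, a core to which CDX and posterior HOX proteins are known to bind, were searched on both strands and matched once each upstream of *Hoxd4*, *Hoxd3* and the upstream start of *Hoxd11*, 3 of 10 starts, against 10.8% of all windows. TATAAA, searched on both strands, matched at *Hoxd13*, with overlapping matches on the 2 strands, and at *Hoxd4*, against 12.4% of all windows.

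Library totals on genes were 30236159 to 39606157 counts in the embryonic and 11404712 to 15903642 in the adult libraries, and a count of 0 allows up to 0.0757 to 0.0992 CPM in the former and 0.189 to 0.263 CPM in the latter, for counting error only. *Eed* itself, the deleted gene, fell in both organs, from 40.04 and 41.5 CPM in the control stomach to 11.4 and 7.40 in the *Eed* KO stomach, and from 38.1 and 40.1 to 10.7 and 8.58 in the intestine. The mesenchyme list of 8 markers summed to 13314 to 24698 CPM over the embryonic libraries, with no marker at 0. Epithelial markers summed to 66.3 to 120 CPM, enteric neural markers to at most 11.4 CPM and leukocyte markers to at most 2.87 CPM. Fold changes are relative to the median of all genes, and scaling by spike-in RNA instead raised that median by 2.39 in the stomach and 1.85 in the intestine after *Eed* loss (log2). The log2 fold change of *Eed* was then 0.14 and -0.23. Its fall, like that of each gene called lower in these 2 comparisons below, is therefore stated only relative to other genes. Spike-in counts differed between replicates, at 12108 and 4871 in the *Eed* KO stomach and 14932 and 5501 in the *Eed* KO intestine. Spike-in scaling is thus uncertain, and whether *Eed* RNA fell on an absolute scale was not settled. The organ labels were checked with *Barx1*, a regulator of stomach mesenchyme, at 626 and 557 CPM in the control stomach against 0.534 and 1.48 in the control intestine, and with *Nkx2-3*, a regulator of intestinal mesenchyme, at 153 and 180 CPM in the control intestine against 2.06 and 0.204 in the control stomach.

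To define the normal use of the cluster, the control intestine was compared with the control stomach. In the stomach the cluster was nearly silent apart from *Hoxd8*, and in the intestine all 9 genes were higher, with no overlap between the libraries of the 2 organs, as was so of 24.5% of all genes tested. *Hoxd8*, from the middle of the cluster, had 2.43 and 2.57 CPM in the stomach and 12.6 and 13.02 in the intestine. *Hoxd9* to *Hoxd12* and *Hoxd1* had 0 counts in both stomach libraries. Of the remaining genes, *Hoxd13* had 1 and 2 counts, *Hoxd4* 1 and 5, and *Hoxd3* 0 and 1. Stomach RNA from the cluster was thus almost all from a single gene, and *Hoxd8* made up 96.5% and 88.1% of the summed HoxD level per kb in these libraries.

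In the control intestine the posterior genes were well above this. *Hoxd9* had 14.5 and 9.39 CPM, *Hoxd10* 13.1 and 7.33, *Hoxd11* 10.7 and 7.33, *Hoxd12* 3.29 and 3.97, and *Hoxd13* 5.90 and 13.3. Anterior genes were low, with *Hoxd4* at 0.393 and 0.538 CPM, *Hoxd3* at 0.449 and 0.336, and *Hoxd1* at 0.786 and 0.370. By level per kb, *Hoxd10*, *Hoxd9*, *Hoxd8*, *Hoxd13* and *Hoxd11* came first in that order. Each overlapped the next between the libraries, so neighbours in this order were not resolved. Per kb, *Hoxd11* lay below *Hoxd10*, *Hoxd9* and *Hoxd8* without overlap. By CPM, *Hoxd11* overlapped *Hoxd10* and *Hoxd9*, and in replicate 2 *Hoxd11* and *Hoxd10* had 218 counts each. Their order per kb thus rests on the lengths used, 3757 unshared bases for *Hoxd11*, whose model covers 2 starts, and 1712 for *Hoxd10*. *Hoxd12* lay below all of the genes that came first per kb, *Hoxd13* and *Hoxd11* included. *Hoxd4*, *Hoxd1* and *Hoxd3* lay below *Hoxd12*, again without resolution among the last 3. The intestinal replicates differed most for *Hoxd13*, which was higher in replicate 2, while *Hoxd9*, *Hoxd10* and *Hoxd11* were higher in replicate 1.

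**Figure D1:**
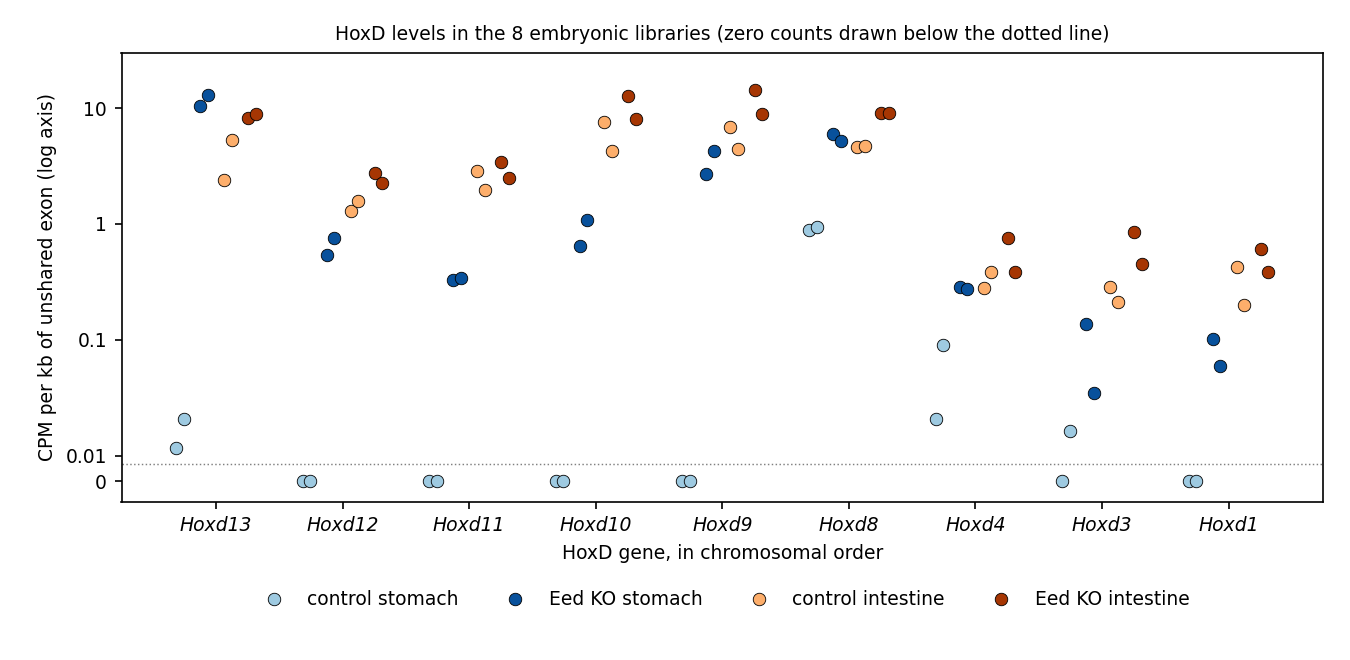
Levels of the 9 HoxD genes in the 8 embryonic libraries, as CPM per kb of unshared exon on a log axis, with genes in chromosomal order from *Hoxd13* to *Hoxd1* and 2 points for each group. *Hoxd13* in the *Eed* KO stomach sits at 10.4 and 13.1, above every other group, while *Hoxd10* and *Hoxd11* in the *Eed* KO stomach stay below 1.1, under both intestinal groups.

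Of the 9 genes, 8 passed the test as higher in the intestine (edgeR quasi-likelihood test, adjusted p under 0.05 and log2 fold change over 1), against 1.68% of the 16218 genes tested. *Hoxd8* was 5.11-fold higher (log2 2.35 ± 0.14 SE, adjusted p = 0.000231), and under scaling by spike-in totals the log2 value was 2.64 and the call was lost (edgeR adjusted p = 0.0945). Where the stomach had no counts, folds are lower bounds against 3 counts over the group, of at least 299.9-fold for *Hoxd9*, 257-fold for *Hoxd10*, 225-fold for *Hoxd11*, 88.4-fold for *Hoxd12* and 14.7-fold for *Hoxd1*. For *Hoxd13* the ratio of counts was 227, with a 95% counting interval of 77.4 to 1105 (edgeR adjusted p = 0.000691). *Hoxd4* differed by a log2 value of 2.47 ± 0.67 and missed the threshold (edgeR adjusted p = 0.0783), although its libraries did not overlap. *Hoxd3* lost its call without any 1 of the 4 libraries, and *Hoxd1* without either stomach library or intestine replicate 1, where the number called was 6 or 7.

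The median log2 difference over the 9 genes was 7.76, or 6.47 with the genes absent from the stomach placed at their bounds, against 0.00 over all genes tested. The other clusters gave a different picture by count, although several posterior genes of HoxA and HoxC behaved like those of HoxD. *Hoxa10*, *Hoxa11*, *Hoxa13*, *Hoxc9*, *Hoxc10* and *Hoxc11* also had 0 counts in the control stomach. Their lower bounds in the intestine ran from 21.8-fold for *Hoxc11* to 639-fold for *Hoxa10*. HoxA had 4 of 11 genes higher in the intestine, *Hoxa9*, *Hoxa10*, *Hoxa11* and *Hoxa13*, and 2 lower, and HoxC had 5 of 9 higher and none lower. HoxB had 0 of 10 higher by edgeR and by DESeq2 and 1 lower, *Hoxb9*, where lower calls were 3.39% of all genes. At an unadjusted p under 0.05 in edgeR there were 6 HoxB genes, against 17.6% of all genes, and log2 differences over the 10 ranged from -2.55 to 0.14.

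In the *Eed* KO stomach the genes from *Hoxd8* to *Hoxd13* rose, and *Hoxd13* had the highest level of the cluster. *Hoxd13*, the most posterior gene, went from 0.0290 and 0.0510 CPM in the control stomach to 25.8 and 32.5 CPM after *Eed* loss, or from 1 and 2 counts to 962 and 1184. *Hoxd9* went from 0 counts to 216 and 332, which is 5.79 and 9.10 CPM. *Hoxd8* rose from 2.43 and 2.57 CPM to 16.4 and 14.1. The other posterior genes reached lower levels, with *Hoxd10* at 1.099 and 1.86 CPM, *Hoxd11* at 1.23 and 1.29, and *Hoxd12* at 1.37 and 1.92, from 0 counts in each control library. At the anterior end, *Hoxd4* had 15 and 14 counts, *Hoxd3* 8 and 2, and *Hoxd1* 7 and 4, so that these genes stayed below 0.45 CPM.

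All 9 genes were higher in both *Eed* KO stomach libraries than in either control library, as were 27.7% of all genes tested. Of the 9, 6 passed the test, *Hoxd8* to *Hoxd13*, against 4.84% of all genes called higher. *Hoxd8* rose 6.09-fold (log2 2.61 ± 0.14 SE, edgeR adjusted p = 0.000164). The ratio of counts for *Hoxd13* was 715, with a 95% counting interval of 244 to 3470 (edgeR adjusted p = 0.000360). The lower bounds were at least 183-fold for *Hoxd9*, 40.3-fold for *Hoxd12*, 36.3-fold for *Hoxd10* and 30.99-fold for *Hoxd11*. *Hoxd1*, *Hoxd4* and *Hoxd3* missed the threshold, with adjusted p of 0.0808, 0.0939 and 0.197 by edgeR. With the replicate number as a block, *Hoxd1* passed (edgeR adjusted p = 0.0295). Without control stomach replicate 2 the call of *Hoxd10* was lost (edgeR adjusted p = 0.0540). This comparison and the organ comparison share the 2 control stomach libraries, so their folds are not independent.

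The *Eed* KO stomach did not take on the intestinal proportions. Beside the control intestine, with no test, the mean CPM of *Hoxd13* in the *Eed* KO stomach was 304% of the intestinal level and that of *Hoxd8* 119%. *Hoxd9* stood at 62.2%, *Hoxd12* at 45.3%, and *Hoxd10* and *Hoxd11* at 14.5% and 14.0%. For the anterior genes these values were 84.4% for *Hoxd4*, 34.3% for *Hoxd3* and 25.7% for *Hoxd1*. The value therefore did not follow the order of the genes along the chromosome, with the lowest values at *Hoxd10* and *Hoxd11*, between *Hoxd9* and *Hoxd12*. *Nkx2-3* in the *Eed* KO stomach was at 18.6 and 25.2 CPM, 13.2% of the control intestine. This percentage was close to the values for *Hoxd10* and *Hoxd11* and far from that for *Hoxd13*. *Barx1* was at 379 and 310 CPM in the *Eed* KO stomach, against 626 and 557 in the control stomach (edgeR adjusted p = 0.141). In the *Eed* KO intestine *Barx1* was called higher, at 9.47 and 13.2 CPM against 0.534 and 1.48 in the control. Whether a share of intestinal cells in the stomach libraries contributed to the low HoxD levels was not tested. In bulk samples, fewer cells that use a gene and less RNA per cell cannot be told apart.

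**Figure D2:**
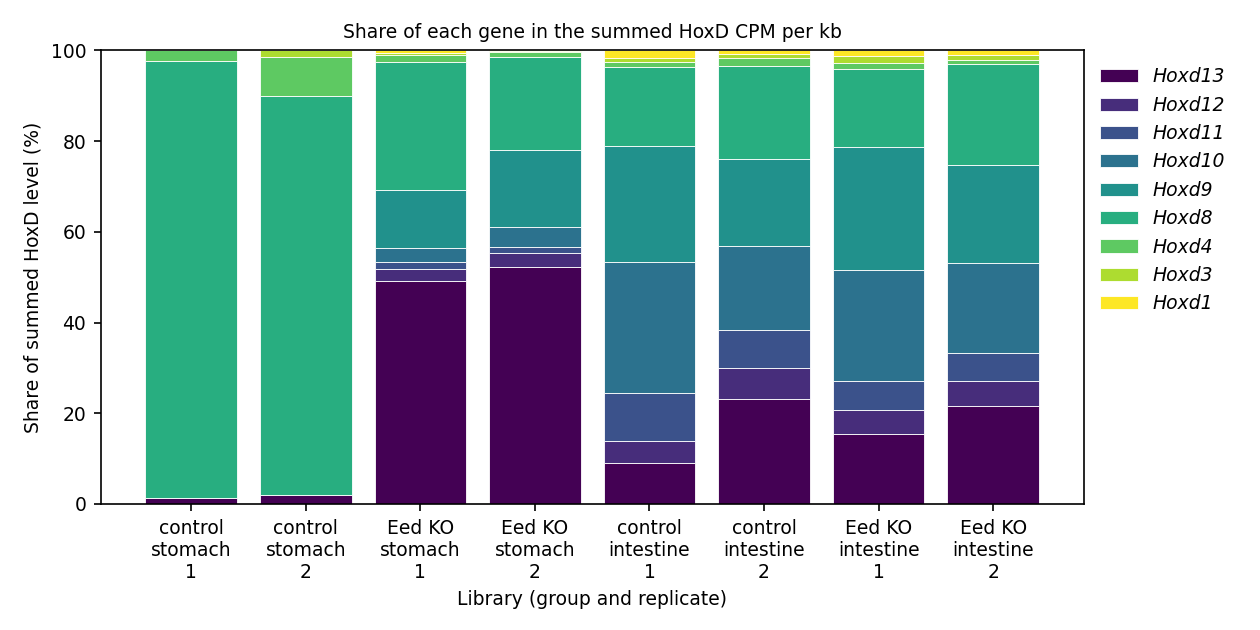
Share of each gene in the summed HoxD level (CPM per kb of unshared exon, percent) in each of the 8 embryonic libraries, stacked from *Hoxd13* at the bottom to *Hoxd1* at the top. *Hoxd13* takes 49.2% and 52.2% of the *Eed* KO stomach but 8.95% to 23.1% of the 4 intestinal libraries, and *Hoxd8* takes nearly all of the control stomach.

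The composition by level per kb shows the same contrast within libraries. *Hoxd13* held 49.2% and 52.2% of the HoxD sum in the *Eed* KO stomach, against 8.95% and 23.1% in control and 15.5% and 21.7% in *Eed* KO intestinal libraries. *Hoxd10* held 3.04% and 4.35% of it there and 18.6% to 28.8% in the intestinal libraries. The ratio of *Hoxd13* to *Hoxd10* per kb was 16.2 and 12.01 for the *Eed* KO stomach but only 0.311 to 1.25 across the 4 intestinal libraries, with no overlap. *Hoxd10* and *Hoxd9* were near parity in the intestine, at ratios of 0.896 to 1.12, and stood at 0.237 and 0.256 in the *Eed* KO stomach. In the *Eed* KO stomach *Hoxd13* came first, then *Hoxd8*, then *Hoxd9*, each without overlap with the next, and *Hoxd10* and *Hoxd12* followed but overlapped each other. The summed level was 21.1 and 25.03 CPM per kb there, beside 26.6 and 23.1 for control intestine and 0.919 and 1.07 for control stomach.

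In the intestine, where the genes were already in use, loss of *Eed* was followed by smaller fold changes than in the stomach. In mean CPM, *Hoxd9* to *Hoxd12* differed by more in the intestine than in the stomach, where they rose from 0 counts. *Hoxd13* had 20.3 and 22.02 CPM in the *Eed* KO intestine against 5.90 and 13.3 in the control. *Hoxd8* had 24.8 and 24.98 against 12.6 and 13.02. *Hoxd9* had 30.5 and 18.9 against 14.5 and 9.39, and *Hoxd10* had 21.9 and 13.9 against 13.1 and 7.33. *Hoxd12* had 6.96 and 5.76 against 3.29 and 3.97. *Hoxd11* was the least different by fold, with 12.9 and 9.38 against 10.7 and 7.33, and its groups overlapped, as did those of *Hoxd1*. The other 7 genes did not overlap and were higher in the *Eed* KO intestine, as were 21.8% of all genes tested.

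None of the 9 genes passed both thresholds in edgeR, where 2.38% of all genes were called higher. *Hoxd8* came closest, with an adjusted p of 0.0101 in edgeR and a log2 fold change of 0.96 ± 0.12, which lies just under the fold threshold. All 9 fold changes were positive, from 0.30 for *Hoxd11* to 1.38 for *Hoxd3*, with a median of 0.81 against 0.01 over all genes. At an unadjusted p under 0.05, 5 genes were below it, and 14% of all genes were. DESeq2 called 2 genes higher, *Hoxd13* and *Hoxd9*. *Hoxd13* differed by a log2 value of 1.15 ± 0.33 (edgeR adjusted p = 0.134) and passed without control intestine replicate 2, the library with 13.3 CPM, where the number called was 1. With the replicate number as a block it also passed (edgeR adjusted p = 0.0250).

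**Figure D3:**
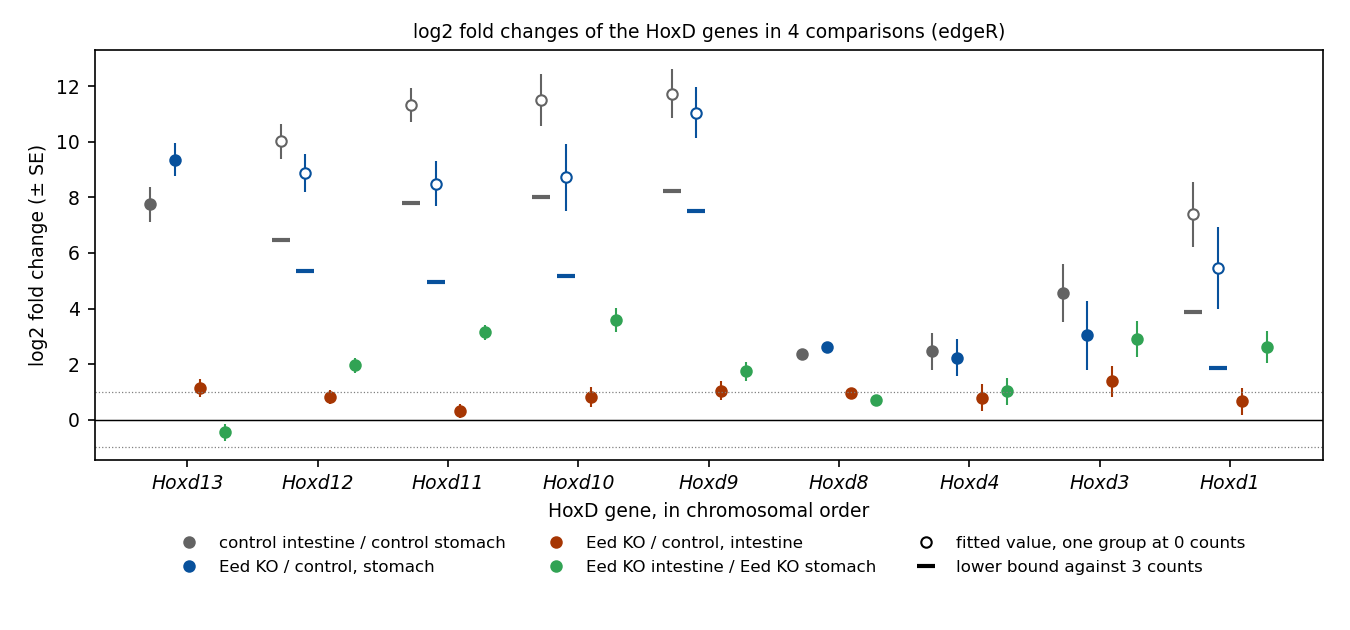
log2 fold changes of the 9 genes with SE in 4 comparisons (edgeR, 2 libraries a group). Open circles mark fitted values where one group had 0 counts, which depend on the prior count, and dashes mark their lower bounds against 3 counts. The *Eed* KO response in the intestine lies between 0.30 and 1.38 for all genes, and *Hoxd13* alone is below 0 in the comparison of the *Eed* KO organs.

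Between the 2 *Eed* KO organs, the order of the organs turned for 1 gene. *Hoxd13* was lower in the *Eed* KO intestine, at 20.3 and 22.02 CPM, than in the *Eed* KO stomach, at 25.8 and 32.5, but this difference did not pass the test (log2 -0.46 ± 0.32 SE, edgeR adjusted p = 0.493). The other 8 genes were higher in the intestine with no overlap of libraries, as were 20.6% of all genes tested. Of these 8, 6 passed, against 1.46% of all genes. *Hoxd10* was 12.1-fold higher (log2 3.59 ± 0.42, edgeR adjusted p = 0.00625) and *Hoxd11* 8.81-fold (log2 3.14 ± 0.28, edgeR adjusted p = 0.00250). *Hoxd3*, *Hoxd1*, *Hoxd12* and *Hoxd9* were also called, at 7.46-fold, 6.09-fold, 3.87-fold and 3.32-fold. *Hoxd8* differed 1.63-fold, under the fold threshold, and *Hoxd4* 2.03-fold without passing (edgeR adjusted p = 0.310). The number called fell from 6 to 2 without *Eed* KO stomach replicate 1 and to 3 without *Eed* KO stomach replicate 2 or *Eed* KO intestine replicate 1. *Hoxd10* and *Hoxd11* were called in each of these fits.

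The difference between the organs in their response to *Eed* loss was tested directly as an interaction, at an adjusted p under 0.2. As a fold, the rise was greater in the stomach than in the intestine for 5 genes, against 0.271% of all genes called in this direction. These were *Hoxd13*, *Hoxd12*, *Hoxd11*, *Hoxd9* and *Hoxd8*. *Hoxd12*, *Hoxd11* and *Hoxd9* rose from 0 counts in the control stomach, and their mean CPM differed by less in the stomach than in the intestine. *Hoxd8*, which had counts in every library, rose 6.09-fold in the stomach and 1.94-fold in the intestine, a difference of -1.65 ± 0.18 on the log2 scale (edgeR adjusted p = 0.0339). Its call was lost under scaling by spike-in totals, where the difference was -2.14 (edgeR adjusted p = 0.926), and that of *Hoxd9* without control stomach replicate 2 (edgeR adjusted p = 0.208). For *Hoxd13* the difference was -8.22 ± 0.74 (edgeR adjusted p = 0.0140), with the caution that it rests on 3 counts in the control stomach. *Hoxd10* missed the threshold (edgeR adjusted p = 0.209) but was called in 7 of 15 alternative fits, DESeq2 among them, with log2 differences of -8.31 to -7.41 over the 15. *Hoxd4*, *Hoxd3* and *Hoxd1* had log2 differences of -1.45, -1.65 and -4.79, which did not pass.

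Genes in and around the cluster were read beside its members. *Evx2*, a homeobox gene next to *Hoxd13* on the posterior side, was at 0 counts in both control stomach libraries but had 10 and 34 once *Eed* was lost, at least 14.7-fold higher (edgeR adjusted p = 0.0280). Intestinal libraries held 17 and 19 counts of it in controls and 40 and 57 in *Eed* KO embryos. *Hoxd3os1*, a non-coding gene antisense to *Hoxd3*, rose from 0.174 and 0.408 CPM to 1.82 and 1.86 in the stomach (log2 2.63 ± 0.47, edgeR adjusted p = 0.0168). Of the 9 genes listed as flanking, *Evx2* was the only one called in the stomach, and *Lnp*, *Mtx2*, *Atf2* and the other 5 were not. Of 9 non-coding genes listed inside the cluster, 3 had enough counts for the test, and 1 rose in the stomach. *Gm14396*, a gene model between *Hoxd10* and *Hoxd9*, was called between the *Eed* KO organs, with 27 and 16 counts in the intestine against 2 and 1 in the stomach, a ratio of counts of 14.5 with a 95% counting interval of 4.64 to 73.0 (edgeR adjusted p = 0.0177).

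Genes of the other clusters were also called in the stomach. After *Eed* loss in the stomach, HoxC had 7 of 9 genes higher and 1 lower, HoxA 4 of 11 higher and 3 lower, and HoxB 2 of 10 higher and 2 lower, where lower calls were 0.808% of all genes. The genes lower relative to the median of all genes, each of which turned positive under spike-in scaling, were *Hoxa2*, *Hoxa4*, *Hoxa5*, *Hoxb1*, *Hoxb7* and *Hoxc5*, none from the posterior groups, and no HoxD gene was among them. The group 13 genes can be set side by side by CPM in each library. *Hoxa13* had 0 counts in the control stomach, and its libraries reached 20.1 and 29.6 CPM there once *Eed* was lost. In the intestine it had 5.50 and 8.21 CPM in controls and 16.3 and 15.6 CPM in *Eed* KO embryos. Its order of groups was that of *Hoxd13*. *Hoxb13* and *Hoxc13* had 0 counts in both control organs and appeared in both *Eed* KO organs. *Hoxb13* had 14.5 and 17.7 CPM in the *Eed* KO stomach and 6.49 and 8.84 in the *Eed* KO intestine. *Hoxc13* had 1.96 and 2.58 CPM in the *Eed* KO stomach and 0.554 and 0.485 in the *Eed* KO intestine.

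**Figure D4:**
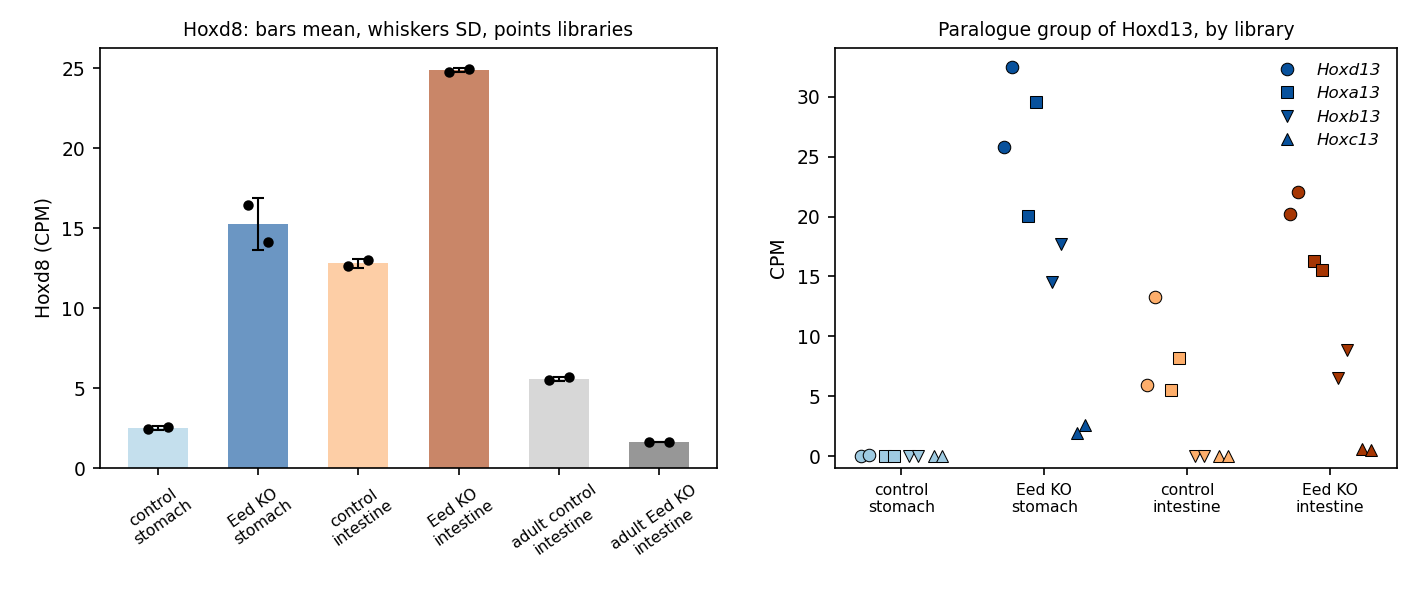
Left, *Hoxd8* in CPM in the 6 groups, with bars for the mean, whiskers for the SD and points for the 2 libraries. Right, the 4 genes of paralogue group 13 in CPM by library in the 4 embryonic groups. *Hoxd8* is lowest in adult *Eed* KO libraries, at 1.60 and 1.62, and highest in the *Eed* KO intestine, and *Hoxd13* and *Hoxa13* are both highest in the *Eed* KO stomach.

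Profiles over the 8 embryonic libraries were compared by the root mean square difference of log2(CPM + 0.5) after centring, among 16209 genes outside the cluster. *Hoxa13* was nearest to *Hoxd13*, at 0.20, and *Hoxa10* followed at 0.73. The nearest to *Hoxd9* was *Hoxc9*, its paralogue, at 0.41. *Hoxd11* and *Hoxd10* shared their nearest gene, *Gm20467*, at 0.36 and 0.62, and this gene stood at 12.4% of its control intestine level in the *Eed* KO stomach. *Hoxd12* was nearest to *Fam155a* at 0.27 and *Hoxd8* to *Tnfaip2* at 0.22. These are descriptions over 4 groups of 2 libraries. A small value needs similar log2 differences between the groups, and with 4 groups few such differences have to match.

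Few genes that act with or above the cluster were called. Of the 9 HOX cofactor genes (*Meis*, *Pbx* and *Pknox* families, whose proteins bind DNA with HOX proteins), 0 were called in either organ after *Eed* loss by edgeR or by DESeq2, and 3 in the stomach and 1 in the intestine had an unadjusted p under 0.05 in edgeR, against 22.6% and 14% of all genes. Their log2 fold changes in the stomach ran from -0.36 to 0.47. Of the 11 PRC2 genes, *Eed* alone was called, lower in both organs. Among 9 upstream regulators (the *Cdx* genes, *Gdf11* and genes of retinoic acid signalling), 7 were tested. In the *Eed* KO stomach 1 of them, *Cyp26a1*, which degrades retinoic acid, was called lower relative to the median of all genes. Lower calls were 0.808% of all genes. Log2 fold changes of the 7 ran from -1.87 to 3.53 there. The highest was that of *Cdx1*, which had 4 counts over the control group and 49 over the *Eed* KO group and missed the threshold (edgeR adjusted p = 0.0653). *Cdx2*, with 0 and 8 counts, was not tested. Endothelial markers moved with genotype, since 3 of 6 were called higher after *Eed* loss in the stomach and 2 of 6 in the intestine. Of all genes, 4.84% and 2.38% were called higher in these comparisons. The endothelial sums were 19.4 to 20.5 CPM against 31.6 to 50.4 CPM in control and *Eed* KO stomach. In the intestine they were 21.4 to 25.4 against 54.4 to 55.6 CPM. The part of endothelial cells in the HoxD results was not tested.

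ATAC-seq peaks lay at or near most starts of the cluster in each list, including starts of genes with no RNA counts in the same condition. Of 10 starts, 9 had a peak within 1000 bp in all 4 lists. In the lists as a whole, 59.2% of all RefSeq starts had one in the control stomach and 60.9% after *Eed* loss there, and the intestinal lists gave 58.1% for control and 60.7% for *Eed* KO. The authors pooled the replicates before calling peaks, so no difference between lists could be tested, and the read depth behind each list is unknown. *Hoxd13* had a peak over its start with a fold enrichment of 4.12 in the control and 4.08 in the *Eed* KO stomach, and of 3.74 and 3.37 in the respective intestinal lists. The RNA of *Hoxd13* differed between the stomach groups by a count ratio of 715. *Hoxd12* and *Hoxd11*, with 0 counts in the control stomach, had enrichments of 2.87 and 2.94 there and 2.82 and 2.67 in the *Eed* KO stomach.

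At the remaining starts, enrichment in the *Eed* KO and the control stomach was compared by value only. It was 6.17 against 4.48 at *Hoxd10*, 4.27 against 3.46 at *Hoxd9* and 3.33 against 2.74 at *Hoxd8*, where the *Eed* KO value was higher. It was 4.23 against 4.14 at *Hoxd3*, and at *Hoxd1* the *Eed* KO value was lower, 5.36 against 5.87. *Hoxd10*, with the largest of these values, was among the genes whose RNA stayed lowest relative to the intestine. *Hoxd4* was the exception among the starts. A peak lay over it in the *Eed* KO stomach (chr2:74721246-74722258, enrichment 4.11, -log10 q of 9.98), in the control intestine (chr2:74721189-74722152, enrichment 3.06, -log10 q of 3.65) and in the *Eed* KO intestine (enrichment 3.56). In the control stomach the nearest peak was 1481 bp away, and the upstream start of *Hoxd11* lay 122 bp outside its peak. With a -log10 q of at least 5, only 5 starts had a peak in the control stomach, 9 in the control intestine and all 10 in both *Eed* KO lists, and this count moves with the depth of each list.

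**Figure D5:**
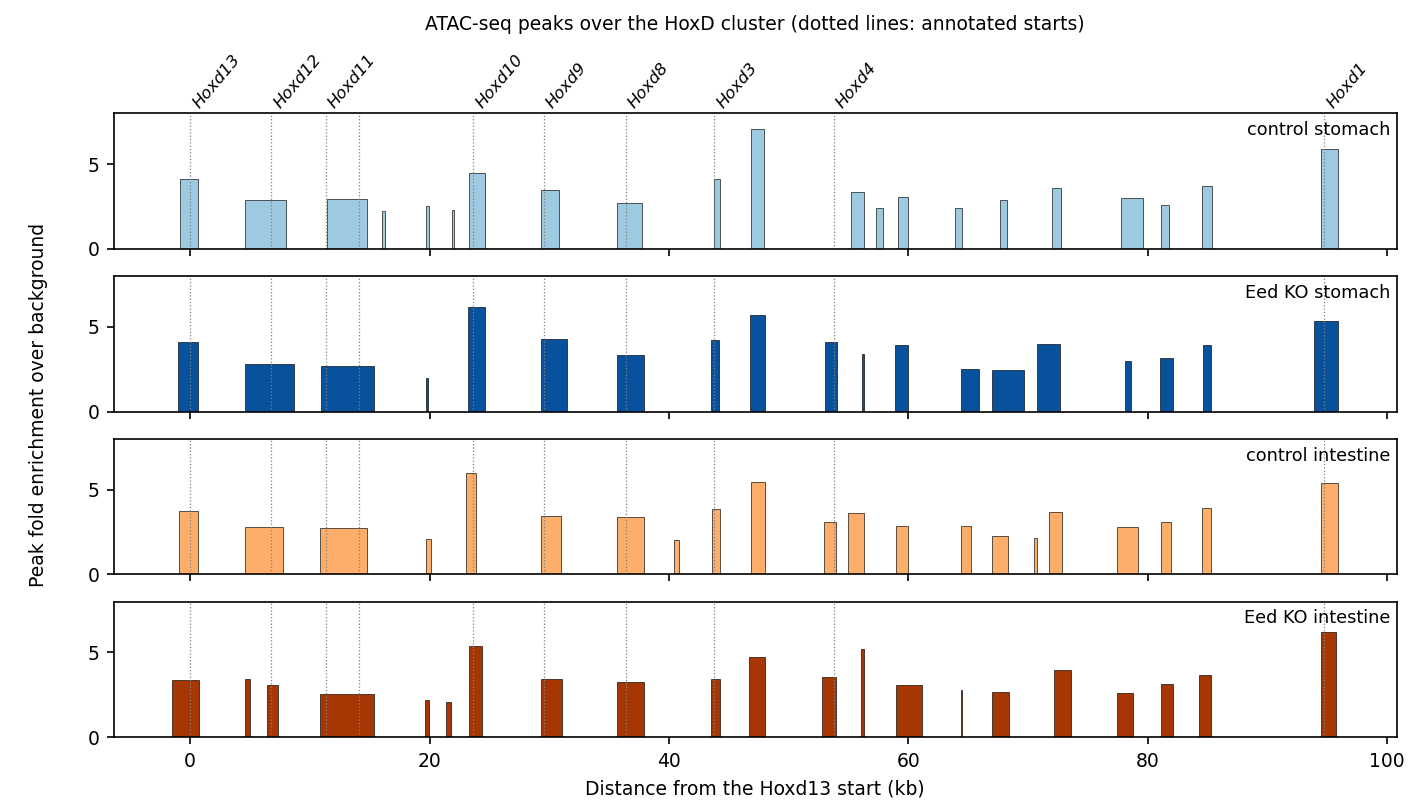
ATAC-seq peaks over the cluster in the 4 pooled lists, as fold enrichment over background (vertical axis) against distance from the *Hoxd13* start in kb (horizontal axis), with bar widths equal to peak widths and dotted lines at annotated starts. The 4 lists hold 19 to 21 peaks each, and the *Hoxd4* start is bare in the control stomach alone.

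Across the cluster, from the *Hoxd13* start to the end of *Hoxd1* (96918 bp), the lists held 21 peaks in the control and 19 in the *Eed* KO stomach, and 21 in each intestinal list. They covered 25.3%, 31.7%, 28.7% and 28.2% of the cluster in the order control stomach, *Eed* KO stomach, control intestine and *Eed* KO intestine. Of the *Eed* KO stomach peaks, 18 of 19 (94.7%) overlapped a control stomach peak by at least 1 bp, and of the control stomach peaks 18 of 21 (85.7%) overlapped one in the *Eed* KO list. The median enrichment in the cluster was 2.99 in the control stomach and 3.92 in the *Eed* KO stomach, against 3.63 and 3.65 over the whole lists. The highest peak in the control stomach, with an enrichment of 7.10 against 4.73 to 5.68 in the other lists, lay at chr2:74715077-74716169, over the 5′ end of *Hoxd3os1* and inside the gene span of *Hoxd3* and *Hoxd4*.

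Adult stroma of the small intestine used little of the cluster. *Hoxd8* had 5.48 and 5.66 CPM in the adult control libraries and 1.60 and 1.62 in those labelled *Eed* KO. *Hoxd9* had 0 and 8 counts in the control libraries and 3 and 6 in the *Eed* KO libraries, and *Hoxd10*, *Hoxd11* and *Hoxd4* had at most 4 counts in any. *Hoxd13*, *Hoxd12*, *Hoxd3* and *Hoxd1* had 0 counts in all 4 adult libraries, so no rise after *Eed* loss was detectable at this depth for the posterior genes that appeared in the embryonic stomach. Adult and embryonic libraries were made with different kits and were not tested against each other.

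*Hoxd8* was the only member with enough adult counts for the test, and it fell 3.44-fold (log2 -1.78 ± 0.47 SE, edgeR adjusted p = 0.0349), where 7.23% of all genes were called lower. The direction is opposite to that in the embryo. The call was lost without any 1 of the 4 libraries, with an adjusted p of 0.123 and 0.133 in edgeR without control replicates 1 and 2, and 0.0640 and 0.0820 without *Eed* KO replicates 1 and 2, the log2 fold change staying between -1.81 and -1.75. The deleted gene gives little check of these labels, since *Eed* was at 29.6 and 33.4 CPM in the control and 25.6 and 25.01 in the *Eed* KO libraries (log2 -0.32 ± 0.21, edgeR adjusted p = 0.317). Cell type markers also moved, in that 5 leukocyte markers summed to 158 and 199 CPM in the control and 3904 and 3703 in the *Eed* KO libraries. All 5 were called higher, where 1856 of the 15039 genes tested were. Endothelial markers summed to 96.4 to 98.95 CPM against 148 to 213 CPM, and enteric neural markers to 2.56 to 3.01 CPM against 18.8 to 20.5 CPM. The 8 mesenchyme markers summed to 11360 and 11878 CPM in the control and 4974 and 3475 in the *Eed* KO libraries. *Hoxd8* was also scaled to this sum, as CPM in each 1e4 CPM of mesenchyme markers. It was then at 4.82 and 4.77 in the control and 3.22 and 4.66 in the *Eed* KO libraries. On this scale *Eed* KO replicate 2 was close to the controls and replicate 1 was below them. Most of the sum was *Col1a1*, *Col1a2* and *Col3a1*, at means of 3212, 2600 and 4183 CPM in the control. These genes and *Pdgfra* were called lower. The other 3 markers tested were not, among them *Vim*, with means of 400 CPM in the control and 350 in the *Eed* KO libraries. The scaled values thus depend on which markers are summed. The part of these markers in the fall of *Hoxd8* was not tested further.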

How the data were processed

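RNA-seq and ATAC-seq were used as deposited. For RNA-seq, the authors used Trimmomatic 0.32 for trimming and STAR for alignment to GRCm38/mm10 plus spike-in sequences, and obtained counts with featureCounts on GENCODE vM4. The deposited counts are whole numbers, not normalized, for 43280 gene symbols and 99 spike-in transcripts. The adult counts ignored strand per the file headers. Genes wholly under opposite-strand exons had counts in 39.4% of cases in the embryonic and 0% in the adult files, so embryonic counting used strand. For ATAC-seq, the authors pooled replicates and called broad peaks with MACS2 2.1.2. The deposited peaks carry a fold enrichment ratio, a score and −log10 q values, of which the score was not used.

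Libraries were grouped by their labels, and n = 2 libraries a group. The test was edgeR's quasi-likelihood F-test (edgeR 4.0.16, R 4.3.3, limma 3.58.1), run on the counts after TMM scaling and filterByExpr, with Benjamini-Hochberg adjustment over 16218 embryonic or 15039 adult genes. The 8 embryonic libraries entered 1 fit with 4 group means, and the 4 adult libraries another. Calls needed an adjusted p under 0.05 (0.2 for the interaction) and an absolute log2 fold change over 1. The SE was the fold change divided by the square root of F. A group at 0 counts gave a lower bound against 3 counts over the group, and 1 to 3 counts gave a ratio with a 95% exact binomial counting interval. The fitting was tested on simulated data. Starts and promoter windows came from the RefSeq table for GRCm38.p6, which holds all 9 genes, with 2 starts for *Hoxd11*. The windows hold the 250 bases before a start.

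Alternatives were DESeq2 1.42.0, with and without 1 spike-in factor, DESeq2 size factors, spike-in scaling, no filter, compared groups only, each library left out, and replicate blocks. For peaks they were stricter q values, a window of 5000 bp and an overlap of 50% of both peaks.

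All 9 genes are named in every comparison, with *Eed*, neighbours of the cluster, and for each gene with a mean of at least 1 CPM the 3 genes of nearest profile, of which some are given. The members and lists were chosen with earlier results of these data known. The study states that replicates were biological, but labels do not tie libraries to embryos.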

Additional observations from a re-analysis of the deposited data

Results flagged for a closer look

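The response to *Eed* loss, as a log2 fold change, differed between stomach and intestine for 5 of the 9 HoxD genes in the test of that difference (edgeR interaction, adjusted p under 0.2). The adjusted p was 0.0140 for *Hoxd13*, 0.0339 for *Hoxd8*, 0.0460 for *Hoxd12*, 0.0531 for *Hoxd11* and 0.0541 for *Hoxd9*. *Hoxd8* alone of these had more than 3 counts in the control stomach, and its difference was -1.65 on the log2 scale, while the sizes fitted for the other 4 depend on the prior count. In mean CPM the rise of *Hoxd8* was similar in both organs. The call of *Hoxd8* was lost under scaling by spike-in totals (edgeR adjusted p = 0.926) and that of *Hoxd9* without control stomach replicate 2 (edgeR adjusted p = 0.208). Groups of 2 libraries are too small for a check of single outlying samples.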

How the results depend on the processing

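Of 556 log2 fold changes of single HoxD genes under the alternatives, 489 kept their direction and their side of the threshold, 35 lost and 32 gained a call, and 0 changed direction. In the *Eed* KO against control intestine, where 0 genes were called, DESeq2 and the fit with no low-count filter called 2 each, DESeq2 with 1 spike-in factor called 1, and scaling by spike-in totals called 9. Spike-in scaling shifted the all-gene median by 1.85 in this comparison (log2), and relative to that median the HoxD fold changes stayed between 0.18 and 1.23 in the intestine. In the comparison of the *Eed* KO organs, where 6 genes were called, spike-in scaling called 1 and the compared groups alone 3. The cause of these differences was not tested. Leaving out each library gave 0 to 1 calls in the *Eed* KO against control intestine, 2 to 5 between the *Eed* KO organs, and 0 in the adult comparison. With 1 library in a group, that library is assumed to vary like the others.

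With the replicate number as a replicate block, the call counts were 8 of 9 genes between the control organs, 7 in the stomach, 1 in the intestine, 6 between the *Eed* KO organs, 6 for the interaction and 0 in the adult comparison. The genes whose calls it changed were *Hoxd1* in the stomach, *Hoxd13* in the intestine and *Hoxd10* in the interaction, all gained, and *Hoxd8* in the adult comparison, lost. The block within genotype called 9, 6 and 6 in the organ comparisons and the interaction. The labels do not say that numbers mark shared embryos. The deviations of same-numbered libraries had correlations across genes of 0.34 between the control organs, 0.71 between the *Eed* KO organs and 0.10 to 0.24 between genotypes, and -0.07 in the adult groups.

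The number of starts with a peak in all 4 lists was 9 as reported, 9 with a -log10 q of at least 2, 5 with a -log10 q of at least 5, and 10 with a window of 5000 bp. With an overlap of at least 50% of both peaks, 13 of 19 *Eed* KO stomach peaks matched a control stomach peak. Depth limits the anterior genes most, since *Hoxd4*, *Hoxd3* and *Hoxd1* had at most 51 counts in any library.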
